A study of Homo sapiens with 8 samples.

Results

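The genes described here are 10 human genes around the transcription factor NF-kB. They are the CXC chemokines CXCL1, CXCL2, CXCL3 and CXCL8, the inhibitors NFKBIA and TNFAIP3, the NF-kB subunits RELB and NFKB2, and the effectors BIRC3 and ICAM1. They were chosen with earlier results of these data known and matched by symbol to 10 of the 78932 Ensembl gene identifiers in the count tables, each to 1 identifier. The data come from HCT116 cells, an established human colorectal cancer line, in which NUDT21 carries a dTAG degradation tag. NUDT21 belongs to the complex CFIm, where it recognises UGUA letters of pre-mRNA ahead of poly(A) sites. All 8 libraries came from tagged cells that received JTE-607, a compound first described as an inhibitor of cytokine production and later as an inhibitor of the pre-mRNA cleavage nuclease CPSF73. Of these, 4 libraries had DMSO, the solvent, and 4 had dTAGV1, which directs the tagged protein to degradation. Doses, times and the number of clones behind the line are not given in the sources used here, and the labels do not say that replicates came from separate cultures, so p-values measure only the spread between these samples. Untagged cells and cells without JTE-607 were not analysed here.

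NF-kB dimers are held in the cytoplasm by IkB proteins until IkB kinase marks these for destruction, and the freed dimers enter the nucleus and switch on inflammatory, survival and adhesion genes. Among those targets are NFKBIA, which encodes IkBalpha, and TNFAIP3, which encodes the ubiquitin-editing enzyme A20. Both proteins close the pathway again, so their RNA is widely read as a sign of its activity. CXCL1, CXCL2, CXCL3 and CXCL8 encode secreted attractants of neutrophils that colorectal cancer cells can make, and their short-lived messengers carry AU-rich elements in the 3′ untranslated region (3′ UTR).

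With dTAGV1, 6 of the 10 genes had more RNA than with DMSO, 0 had less, 2 did not pass the test and 2 had too few counts to be tested. CXCL8, CXCL2 and CXCL1 went from almost no counts to a few CPM, BIRC3 from 15.96 to 124 CPM, NFKBIA from 109 to 304 CPM and TNFAIP3 from 3.20 to 15.4 CPM. RELB and NFKB2 did not pass the test. CPM is the sense-strand count in each 1000000 counts of a library after TMM scaling. A call means a Benjamini-Hochberg adjusted p under 0.05 in edgeR's quasi-likelihood test over 12618 genes. In that test 29.4% of all genes were called higher, 28.5% were called lower and 57.9% were called in either direction. Calls with more than a 2-fold increase made up 7.35% of all genes, and all 6 called members were among them.

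Both counts of 6, of calls and of calls with more than a 2-fold increase, have a limit of their own. CXCL1, CXCL2 and CXCL8 passed the filter on low counts only through their dTAGV1 libraries, so that they had to differ in order to be tested. TNFAIP3 reached the filter in 2 DMSO and 4 dTAGV1 libraries. NFKBIA, BIRC3, RELB and NFKB2 passed it in all libraries of both groups. No member was called lower, and at an unadjusted p under 0.05 the edgeR test also gave 0 lower and 7 higher, with NFKB2 as the added one. Of all 12618 tested genes, 3993 were higher and 3832 lower at that unadjusted threshold. DESeq2 and limma-voom likewise called 0 members lower. For CXCL1, CXCL2 and CXCL8 the filter all but fixed the direction, so nothing is read from the 0 for them.

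Libraries held 8649238 to 9977205 reads, of which 3447842 to 4291256 fell on genes in sense orientation. One count equalled 0.237 to 0.302 CPM. NUDT21 had 28.4 to 34.95 CPM in the DMSO libraries and 4.42 to 10.2 CPM in the dTAGV1 libraries, a log2 fold change of -1.95 ± 0.18 (SE; edgeR, adjusted p = 1.36e-09). Protein, on which the tag acts, was not measured. In bulk RNA, fewer cells of a kind and less RNA in each cell cannot be told apart. Epithelial markers were present, with a summed level over 9 genes of 1721 to 2018 CPM with DMSO and 1384 to 1483 CPM with dTAGV1. VIL1, 1 of these 9, stayed under 10 counts in every library. All 7 immune cell markers, among them PTPRC and CD14, stayed under 10 counts in every library, and they summed to 0.534 to 3.01 CPM with DMSO and 0.906 to 3.97 CPM with dTAGV1. The 6 fibroblast and endothelial markers summed to 17.6 to 22.4 CPM with DMSO and 11.8 to 16.7 CPM with dTAGV1. Most of that was COL1A1, with means of 17.3 and 13.8 CPM, and 4 of the 6 stayed under 10 counts in every library.

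The promoters of the attractants, the inhibitors and BIRC3 are shown first, because NF-kB acts through a short DNA element, the kB site. The stretches below come from RefSeq on GRCh38.p14 and read 5′ to 3′ on the strand of the gene, from 110 to 31 bases before the RefSeq start, and for BIRC3 from 220 to 121 bases before it. Capitals mark matches to the general kB motif of 10 bases on either strand. In CXCL1, CXCL2 and CXCL3 matches on both strands overlap and form 1 block of capitals.
CXCL1 (chr4:73869283-73869362, plus strand): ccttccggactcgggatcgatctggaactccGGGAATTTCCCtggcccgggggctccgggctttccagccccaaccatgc
CXCL2 (chr4:74099226-74099305, minus strand): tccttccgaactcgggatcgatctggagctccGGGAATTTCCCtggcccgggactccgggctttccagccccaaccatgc
CXCL3 (chr4:74038720-74038799, minus strand): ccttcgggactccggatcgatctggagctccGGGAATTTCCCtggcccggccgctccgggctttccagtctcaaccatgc
CXCL8 (chr4:73740459-73740538, plus strand): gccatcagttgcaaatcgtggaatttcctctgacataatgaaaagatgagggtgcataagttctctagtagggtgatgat
NFKBIA (chr14:35404780-35404859, minus strand): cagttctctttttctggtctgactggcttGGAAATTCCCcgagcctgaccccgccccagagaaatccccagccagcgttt
TNFAIP3 (chr6:137867149-137867228, plus strand): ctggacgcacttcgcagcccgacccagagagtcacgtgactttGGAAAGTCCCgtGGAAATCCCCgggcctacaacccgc
BIRC3 (chr11:102317264-102317363, plus strand): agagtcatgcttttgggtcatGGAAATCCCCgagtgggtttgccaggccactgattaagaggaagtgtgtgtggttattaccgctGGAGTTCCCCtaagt

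The match in CXCL1, CXCL2 and CXCL3 begins 79, 78 and 79 bases before the start, within a block that reads the same in all 3 genes. Without gaps, the CXCL1 and CXCL3 stretches were identical at 91.2% of 80 bases. CXCL1 and CXCL2 were identical at 75.9% of 79 bases, and CXCL2 and CXCL3 at 70.9% of 79. NFKBIA had 1 match, 81 bases before its start, and TNFAIP3 had 2, at 67 and 55 bases. BIRC3 had 2, at 199 and 135 bases. The table of promoters, 300 bases each with 250 before the start and 50 after it, held 9 of the 10 genes, all but RELB, and 7 of the 9 had a match in at least 1 window. Of all 35116 windows, 5.91% held one, which is a share of single windows and not of genes. The members were chosen as genes around NF-kB, so matches were likely from the choice, and nothing is read from these shares. NFKB2 has 3 windows in that table, 2 of them with matches, and did not pass the test. No window of CXCL8 or ICAM1 held a match to this motif, which says only that those letters are not there. A match is not a measured binding site. RefSeq and GENCODE 29 place some starts differently, so part of the CXCL2, CXCL3, CXCL8 and TNFAIP3 stretches lies inside the GENCODE 29 gene.

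The other sequence feature shown is the AU-rich element, because these messengers are known to be short-lived and the libraries read RNA from its 3′ end. AUUUA, searched on the transcript strand with overlaps counted, occurred 10 times in the 3′ UTR of CXCL2, 9 times in CXCL8, 7 times in CXCL3 and 5 times each in CXCL1, TNFAIP3 and BIRC3. It occurred 3 times in NFKBIA, 2 times in ICAM1, 1 time in NFKB2 and 0 times in RELB. The median over 10540 tested genes with a 3′ UTR in GENCODE 29 was 2, and 30.8% of these genes had at least 5 copies. For the 4 attractants, the 30 bases of 3′ UTR with the most copies read as follows, as DNA letters with AUUUA (here attta) in capitals.
CXCL2: aagtcttctATTTATTTATTTATTTATTTA
CXCL8: taacctATTTAttATTTAtgtATTTATTTA
CXCL1: cttaggagaagtcttctATTTATTTATTTA
CXCL3: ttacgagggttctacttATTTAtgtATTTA

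These 30-base stretches held 5 copies in CXCL2, 4 in CXCL8, 3 in CXCL1 and 2 in CXCL3. CXCL2 had 13.9 copies in each kilobase of 3′ UTR, a density that 0.522% of the tested genes reached. CXCL3 had 10.4, a density reached by 1.12% of them, and BIRC3 had 7.91, reached by 2.51%. CXCL8, CXCL1, NFKB2 and NFKBIA had 7.19, 7.08, 6.76 and 5.98, reached by 3.35% to 6.08%, and NFKB2 was not called. ICAM1 had 1.51 and RELB 0. TNFAIP3, whose 3′ UTR is longer, had 2.51 copies in each kilobase, which 35.97% reached. UGUA, the letters that CFIm binds, occurred in the last 100 transcript bases of 4 of the 10 genes, against 55.9% of tested genes. Those were NFKBIA with 4 copies and CXCL3, CXCL8 and TNFAIP3 with 1 each. The annotated ends need not be the ends used in these cells, and use of single poly(A) sites was not measured.

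CXCL8 encodes interleukin-8, the best known neutrophil attractant of the family (ENSG00000169429; GENCODE 29 on GRCh38, chromosome 4, 73740506 to 73743716, plus strand, protein-coding). It had 2, 3, 0 and 1 counts in DMSO replicates 1 to 4 and 34, 19, 21 and 12 counts in dTAGV1 replicates 1 to 4. Every dTAGV1 library was above every DMSO library, and no DMSO library rose above 3 counts. The mean level was 0.379 ± 0.3203 CPM for DMSO and 6.10 ± 2.79 CPM with dTAGV1 (SD, n = 4 each). Its log2 fold change of 3.85 ± 0.53 (SE; edgeR, adjusted p = 1.11e-06) was the highest of the 8 members tested and the 23rd highest of all tested genes. With 6 counts in the whole DMSO group, the size of the change is less certain than its direction. CXCL8 was tested only through its dTAGV1 libraries, which favours a high rank, so nothing is read from its place among the tested genes.

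CXCL2 (ENSG00000081041; chromosome 4, 74097035 to 74099293, minus strand) encodes an attractant that signals through the receptor CXCR2. Its counts were 0, 1, 2 and 4 with DMSO and 22, 14, 25 and 23 with dTAGV1, with no overlap between the groups. The level went from 0.441 ± 0.426 to 5.82 ± 1.32 CPM (mean ± SD of 4 libraries), or a log2 fold change of 3.60 ± 0.46 (SE; edgeR, adjusted p = 3.37e-07).

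CXCL1 (ENSG00000163739; chromosome 4, 73869393 to 73871242, plus strand) is a close relative of CXCL2 that was first described as a melanoma growth factor. It had 3, 2, 4 and 4 counts with DMSO and 32, 18, 29 and 19 with dTAGV1. The groups did not overlap, and replicates 1 and 3 of dTAGV1 lay above replicates 2 and 4. The level went from 0.840 ± 0.260 to 6.89 ± 2.26 CPM (mean ± SD of 4 libraries), or a log2 fold change of 2.98 ± 0.38 (SE; edgeR, adjusted p = 3.67e-07). Of the 8 tested members, 6 had groups that did not overlap, all with dTAGV1 higher, and RELB and NFKB2 overlapped. Of all tested genes, 25.8% had such groups with dTAGV1 higher and 50.9% in either direction. Since CXCL1, CXCL2 and CXCL8 were tested only through their dTAGV1 libraries, and TNFAIP3 in part, nothing is read from this count.

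CXCL3 (ENSG00000163734; chromosome 4, 74036589 to 74038807, minus strand), the remaining attractant, differed in 1 library. It had 1, 3, 1 and 4 counts with DMSO and 23, 14, 1 and 19 counts with dTAGV1. Replicate 3 of dTAGV1 lay at the DMSO level for CXCL3, while the same library had 29 counts of CXCL1, 25 of CXCL2 and 21 of CXCL8. The mean level was 0.563 ± 0.355 CPM for DMSO and 3.88 ± 2.60 CPM for dTAGV1 (SD, n = 4 each). Because only 3 libraries reached the filter on low counts, CXCL3 was not among the tested genes. In the fit without a filter, in which 13.2% of 29925 genes were called higher, its log2 fold change was 2.67 (edgeR, adjusted p = 9.92e-07). Against the main fit, that fit gave smaller adjusted p-values for every tested member but RELB. For NFKBIA the value was 2.49e-65 against 4.95e-07 (edgeR). The p-value of CXCL3 in that fit is thus not set beside those of the main fit. Without dTAGV1 replicate 3 CXCL3 passed the filter with a log2 fold change of 3.05 (edgeR, adjusted p = 6.05e-06). It also passed the filter when each DMSO library in turn was left out, with log2 fold changes of 2.48 to 3.08 and adjusted p-values of 0.00222 to 0.00575 (edgeR). Leaving out a library lowers the number of libraries that must reach the filter. Only dTAGV1 libraries reached it for CXCL3, so nothing is read from the p-values of these fits with a filter. What sets this library apart for CXCL3 was not tested.

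**Figure D1:**
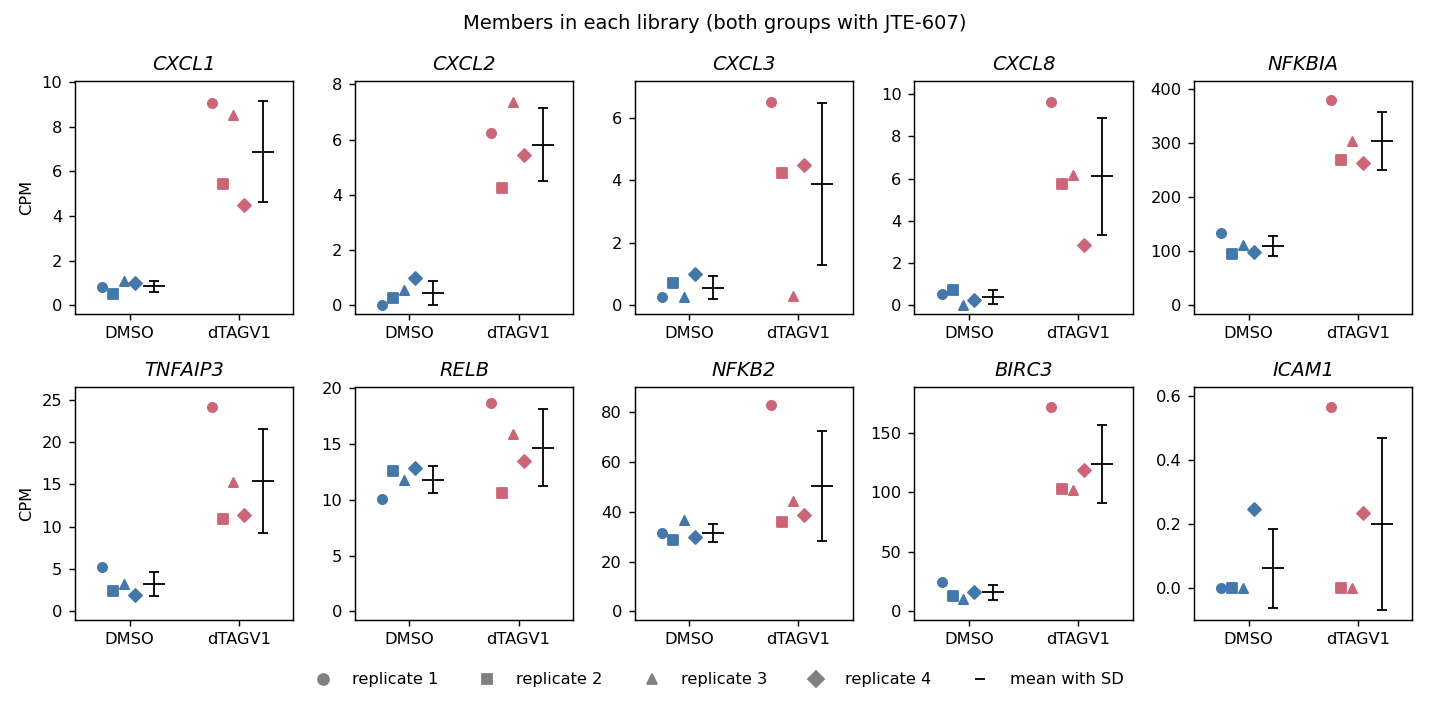
CPM (vertical axes, 1 scale for each gene) of the 10 members in DMSO and dTAGV1 libraries, with 1 symbol for each replicate number and the mean with its SD (n = 4) in black. The groups do not overlap for CXCL1, CXCL2, CXCL8, NFKBIA, TNFAIP3 and BIRC3, while dTAGV1 replicate 3 of CXCL3 lies at 0.295 CPM among the DMSO libraries.

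CXCL8, CXCL1, CXCL3 and CXCL2 lie in this order within 358788 bases of chromosome 4 (73740506 to 74099293), in a region with 9 protein-coding genes in GENCODE 29. The other 5, CXCL6, PF4V1, PF4, PPBP and CXCL5, are chemokine genes too, and each had 0 counts in all 8 libraries. A count of 0 allows a level of up to 0.710 to 0.906 CPM in a library, counting error only. Counts in this cluster thus fell on 4 of 9 coding genes. CXCL1, CXCL2 and CXCL3 are near copies of each other, and the tables hold reads that map to more than 1 place in a total of their own, outside the genes. The longest run shared by the last 500 transcript bases was 77 bases between CXCL1 and CXCL2 and 21 bases between CXCL3 and either of them. Over whole transcripts CXCL2 and CXCL3 shared a run of 97 bases. The level of these 3 genes is therefore uncertain where reads fall in shared runs, and read length is not given in the sources used here. CXCL8 shared no run longer than 18 bases with any of them.

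Counts of a 3′-end kit do not grow with transcript length, so levels of different genes can be set side by side without a length term. With dTAGV1 the order of mean levels among the 4 attractants was CXCL1, CXCL8, CXCL2 and CXCL3, from 6.89 to 3.88 CPM. Neighbours in that order overlapped in their libraries. Ratios within a library do not depend on scaling and were tested for 6 pairs of attractants and 2 other pairs. The log2 ratio of CXCL1 to CXCL2 was 1.098 with DMSO (0 to 2.81 over the libraries) and 0.21 with dTAGV1 (-0.27 to 0.53), hence a difference of -0.89 (2-sided exact permutation test p = 0.2, and 0.411 after Benjamini-Hochberg adjustment over 8 pairs). For CXCL2 to CXCL8 the difference was -0.06 (exact permutation test p = 0.971, adjusted p = 0.971). None of the 6 pairs passed, and their adjusted p-values ran from 0.411 to 0.971 (exact permutation test). The smallest p that 4 libraries against 4 allow is 0.0286, and the low DMSO counts made the ratios wide, so unequal changes among the attractants were not detectable at this depth.

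**Figure D2:**
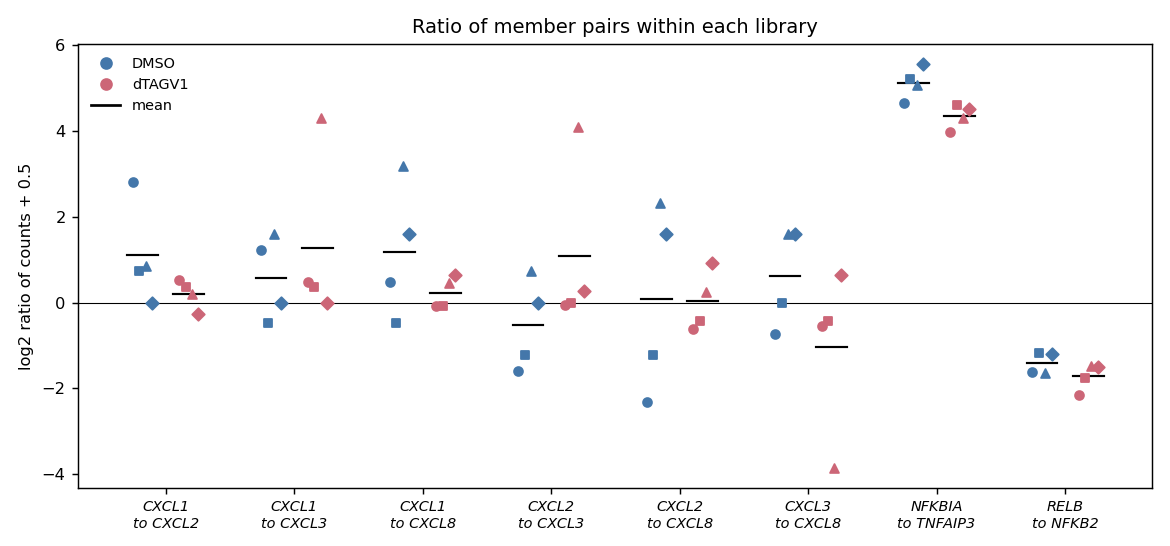
Log2 ratio of the counts of 2 members, each plus 0.5, within each library, for DMSO and dTAGV1, with 1 symbol for each replicate number and the mean as a black line. Groups overlap for all 6 pairs of attractants and do not overlap for NFKBIA to TNFAIP3, and dTAGV1 replicate 3 stands apart in each pair with CXCL3.

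NFKBIA was the most abundant member (ENSG00000100906; chromosome 14, 35401511 to 35404749, minus strand, protein-coding). Its level was 134, 94.1, 112 and 98.4 CPM in DMSO replicates 1 to 4, and 380, 269, 304 and 262 CPM in dTAGV1 replicates 1 to 4. The lowest dTAGV1 library lay well above the highest DMSO library. The means were 109 ± 17.8 and 304 ± 54.1 CPM (mean ± SD of 4 libraries), or a log2 fold change of 1.47 ± 0.13 (SE; edgeR, adjusted p = 4.95e-07).

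TNFAIP3 (ENSG00000118503; chromosome 6, 137867188 to 137883312, plus strand, protein-coding) was far less abundant. It had 19, 10, 12 and 8 counts with DMSO and 85, 36, 52 and 48 with dTAGV1, again without overlap. The level went from 3.20 ± 1.42 to 15.4 ± 6.12 CPM (mean ± SD of 4 libraries), or a log2 fold change of 2.27 ± 0.30 (SE; edgeR, adjusted p = 1.68e-06). The log2 ratio of NFKBIA to TNFAIP3 was 4.65 to 5.55 in the DMSO libraries and 3.97 to 4.61 in the dTAGV1 libraries. The groups did not overlap, with a difference of -0.77 in the mean, lower in 4 of 4 dTAGV1 libraries (exact permutation test p = 0.0286, the smallest possible). This did not hold after adjustment over the 8 pairs (exact permutation test, Benjamini-Hochberg adjusted p = 0.229). A single pair at the smallest possible p cannot pass that adjustment, so this result says nothing about whether the changes of both genes differ. TNFAIP3 overlaps the antisense gene AL357060.1, and had 0 counts on its opposite strand in all 8 libraries. Over all 10 members and all libraries, counts on the opposite strand never exceeded 3 for a gene.

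BIRC3 encodes cIAP2, a ubiquitin ligase that supports survival signalling downstream of TNF receptors (ENSG00000023445; chromosome 11, 102317450 to 102339403, plus strand, protein-coding). Its level was 24.6, 13.0, 10.4 and 15.8 CPM in the DMSO libraries and 171, 103, 102 and 118 CPM in the dTAGV1 libraries. No dTAGV1 library came near the DMSO range. The means were 15.96 ± 6.17 and 124 ± 32.7 CPM (mean ± SD of 4 libraries), or a log2 fold change of 2.96 ± 0.27 (SE; edgeR, adjusted p = 2.42e-05). It is the member with the largest change among those that passed the count filter in every library. BIRC2, which encodes the relative cIAP1, starts 7807 bases past the end of BIRC3 on the same strand, and it moved the other way. BIRC2 fell from 108 ± 10.3 to 58.1 ± 6.17 CPM (mean ± SD of 4 libraries), or a log2 fold change of -0.88 (edgeR, adjusted p = 2.48e-08). The last 500 transcript bases of BIRC3 and BIRC2 share no run longer than 10 bases, while over whole transcripts they share one of 60 bases.

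ICAM1 encodes an adhesion molecule to which leukocytes bind (ENSG00000090339; chromosome 19, 10270835 to 10286615, plus strand, protein-coding). It had 0, 0, 0 and 1 counts with DMSO and 2, 0, 0 and 1 counts with dTAGV1. Both groups are at or under the 3 counts that a count of 0 allows, so no fold is given, and no difference was detectable at this depth.

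RELB and NFKB2 encode the partners of the noncanonical NF-kB dimer, RelB and p52. RELB (ENSG00000104856; chromosome 19, 45001430 to 45038198, plus strand, protein-coding) had 10.1, 12.5, 11.7 and 12.9 CPM with DMSO and 18.7, 10.6, 15.9 and 13.5 CPM with dTAGV1. The groups overlapped, and the log2 fold change of 0.31 ± 0.19 (SE) did not pass (edgeR, adjusted p = 0.16). NFKB2 (ENSG00000077150; chromosome 10, 102394110 to 102402529, plus strand, protein-coding) had 31.4, 28.5, 36.8 and 29.7 CPM with DMSO and 83.0, 35.9, 44.2 and 38.5 CPM with dTAGV1. Replicate 1 of dTAGV1 stood far above the rest, and replicate 2 lay inside the DMSO range. The log2 fold change, 0.67 ± 0.28 (SE), did not pass (edgeR, adjusted p = 0.0682). Without dTAGV1 replicate 1 it was 0.32, with a smaller spread and an adjusted p of 0.0348 (edgeR). Without dTAGV1 replicate 2 it was 0.79 (edgeR, adjusted p = 0.0246). With the replicate number as a block the adjusted p was 0.00699 (edgeR). Whether NFKB2 passes is thus set by the libraries and the model. The log2 ratio of RELB to NFKB2 differed by -0.31 (exact permutation test p = 0.229, and 0.411 after adjustment).

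The nearest annotated genes of the members moved both ways where they could be tested. PSD, which ends 87 bases past NFKB2 on the opposite strand, had a log2 fold change of -1.18 (edgeR, adjusted p = 0.00654), and GBF1 on the other side of NFKB2 had one of 0.28. CLPTM1, on the left of RELB, had one of 0.52 (edgeR, adjusted p = 0.00109), and CLASRP, 841 bases to its right, one of -0.18, which was not called. MTHFD2L beside CXCL2 had a log2 fold change of 0.38 (edgeR, adjusted p = 0.00653), and MRPL4 beside ICAM1 one of -0.21, which was not called. No neighbour of CXCL1, CXCL3, CXCL8, NFKBIA or TNFAIP3 was tested.

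Across the members with more than 10 counts in all, dTAGV1 replicate 1 was the highest dTAGV1 library for 8 of 9, all but CXCL2. Over all tested genes it was the highest of its group for 27.7%. Its level relative to the mean of its group ran from 1.07 for CXCL2 to 1.68 for CXCL3. In the DMSO group the highest library varied, with replicates 1 and 4 leading for 3 members each, replicate 3 for 2 and replicate 2 for 1. Leaving out dTAGV1 replicate 1 left log2 fold changes of 2.76 for BIRC3, 1.34 for NFKBIA, 1.97 for TNFAIP3, 2.81 for CXCL1, 3.56 for CXCL2 and 3.53 for CXCL8, all with an adjusted p under 0.05 (edgeR). The cause of the higher values in that library was not tested.

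**Figure D3:**
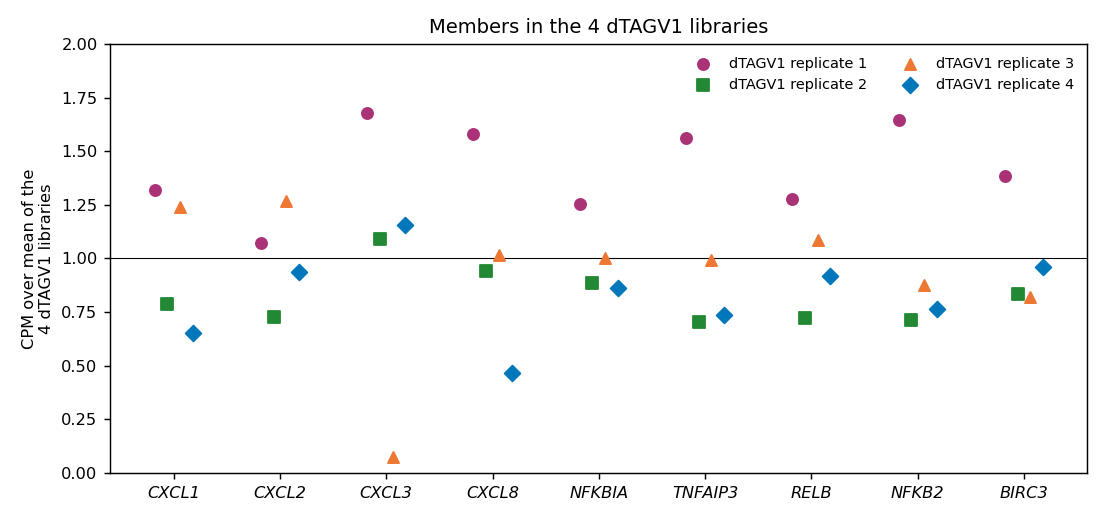
Level of 9 members in each dTAGV1 library, as CPM divided by the mean of the 4 dTAGV1 libraries (vertical axis, linear), with 1 symbol for each replicate number. Replicate 1 is highest for 8 of the 9, and replicate 3 of CXCL3 lies at 0.0758 of its group mean.

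Around the members, 121 other genes of the pathway were listed by role, and 71 of them had enough counts to be tested. Of these 28 (39.4%) were higher and 15 (21.1%) lower with dTAGV1 (edgeR, adjusted p under 0.05), and of all tested genes 29.4% were higher and 28.5% lower. The lists were chosen with earlier results known. Of the 28, CXCR4, IL1RAP and TNFRSF9 were tested only through their dTAGV1 libraries, and CSF1 reached the filter in 2 DMSO and 4 dTAGV1 libraries. Nothing particular to the lists is therefore read from these shares. Their median log2 fold change was 0.20, and that of all tested genes was 0.01. The 8 tested members had a median of 2.62, which includes the 4 that reached the filter in all dTAGV1 but not all DMSO libraries. The lists were not equally complete, since 29 of the 121 genes had 0 counts in all libraries.

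The remaining NF-kB subunits were all tested and all 3 were higher, by less than most members. REL went from 22.5 ± 1.68 to 44.5 ± 8.75 CPM (mean ± SD of 4 libraries), or a log2 fold change of 0.98 (edgeR, adjusted p = 9.42e-07). NFKB1, which encodes p105 and p50, had a log2 fold change of 0.71 (edgeR, adjusted p = 2.63e-07). RELA, which encodes p65, had one of 0.35 (edgeR, adjusted p = 0.00225). In each of the 3 the groups did not overlap, as in 25.8% of all tested genes with dTAGV1 higher and 50.9% in either direction. In counts irrespective of strand RELA had 1 to 7 counts in a library and could not be tested, which left 2 called higher.

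Of 12 tested IkB proteins and negative regulators, 4 were higher (33.3%), against 29.4% of all tested genes. In that list 1 was lower (8.33%), against 28.5%, and 7 were not called. NFKBIZ, an atypical nuclear IkB protein, had the highest value and went from 13.2 ± 1.99 to 41.3 ± 5.35 CPM (mean ± SD of 4 libraries), or a log2 fold change of 1.63 (edgeR, adjusted p = 6.98e-10). BCL3, another nuclear IkB protein, had a log2 fold change of 1.51, and the deubiquitinase gene CYLD one of 0.87. These 2 were named after their values were seen. ITCH, a ubiquitin ligase that works with A20, was the lowest at -0.49 (edgeR, adjusted p = 0.013). Without dTAGV1 replicate 3 it was -0.40 and no longer called (edgeR, adjusted p = 0.0528).

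Kinases and adaptors moved both ways, at shares near those of all tested genes, 29.4% higher and 28.5% lower. Of 19 tested, 4 were higher (21.1%), 6 lower (31.6%) and 9 not called. MAP3K14, which encodes the kinase NIK of the noncanonical branch, was the highest at 1.09 (edgeR, adjusted p = 7.34e-05). TRAF5, a receptor adaptor, was the lowest at -1.15 (edgeR, adjusted p = 0.000287). Of the IkB kinases, CHUK fell by 0.82 on the log2 scale and IKBKB, at 0.21, was not called, and both were named after their values were seen. Among receptors, 4 were higher (57.1%), 1 was lower (14.3%) and 2 were not called of 7 tested. TLR3, a sensor of double-stranded RNA, went from 4.97 ± 1.09 to 35.6 ± 4.45 CPM (mean ± SD of 4 libraries), or a log2 fold change of 2.83 (edgeR, adjusted p = 1.68e-12). TNFRSF12A was the lowest at -0.37. The TNF receptor gene TNFRSF1A and the interleukin-1 receptor partner IL1RAP, named after their values were seen, had log2 fold changes of 1.12 and 2.62, and IL1RAP was tested only through its dTAGV1 libraries.

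Of 8 upstream ligands, 5 had 0 counts in all 8 libraries, namely TNF, IL1B, LTA, LTB and TNFSF14. The adaptor gene RNF31 had 0 counts in all libraries too. Reads given to no gene, among them those that map to more than 1 place, are outside these counts. A count of 0 is therefore not read as absent RNA, for these genes or for those of the other lists. IL1A had 0, 1, 0 and 2 counts with DMSO and 3, 4, 5 and 4 with dTAGV1, with no overlap but too few to be tested. In the fit without a filter, which gave smaller adjusted p-values for most members, it was called higher (edgeR, adjusted p = 0.0317). Of 2 tested, IL18 had a log2 fold change of 0.97 (edgeR, adjusted p = 4.3e-09) and TNFSF12 one of -0.52 (edgeR, adjusted p = 0.00919). In counts irrespective of strand, 0 ligands were called lower. Among the other CXC chemokines 8 of 13 had 0 counts, and only CXCL16, a membrane-bound chemokine, was tested. It went from 46.4 ± 5.19 to 66.7 ± 3.53 CPM (mean ± SD of 4 libraries), or a log2 fold change of 0.53 (edgeR, adjusted p = 7.85e-05). CXCR2, the receptor of the 4 attractants, had 1 count over the DMSO libraries and 9 over the dTAGV1 libraries, too few to be tested. CXCR4 was the only CXC receptor tested, through its dTAGV1 libraries alone, and its level was higher there, from 0.889 ± 0.483 to 4.41 ± 1.15 CPM (mean ± SD of 4 libraries), or a log2 fold change of 2.28 (edgeR, adjusted p = 3.41e-05).

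Of 34 further known NF-kB targets, 18 were tested. Of these 9 were higher (50%, against 29.4% of all tested genes), 4 lower (22.2%, against 28.5%) and 5 not called. TNFRSF9, which encodes the costimulatory receptor 4-1BB, had the highest value, and was tested only through its dTAGV1 libraries. It had 0, 4, 3 and 2 counts with DMSO and 57, 21, 42 and 27 with dTAGV1, a log2 fold change of 4.08 ± 0.48 (SE; edgeR, adjusted p = 2.62e-07). XIAP, an inhibitor of caspases, was the lowest and fell from 131 ± 7.37 to 47.8 ± 9.14 CPM (mean ± SD of 4 libraries), or a log2 fold change of -1.44 (edgeR, adjusted p = 2.71e-11). The abundant targets PLAU, IRF1, SDC4 and JUNB, named after their values were seen, had log2 fold changes of 1.96, 1.35, 1.22 and 0.81. SOD2, TNFAIP2 and BCL2L1, seen the same way, had values of 0.12, -0.08 and -0.12 and were not called. The targets CCL2, CCL5, IL6, VCAM1 and SELE had 0 counts in all libraries. CCL20 had 0 counts in all DMSO libraries and 21, 2, 1 and 5 with dTAGV1, most of them in dTAGV1 replicate 1. The summed dTAGV1 level was 10.4-fold a floor of 3 counts over the DMSO group. That ratio leaves out the spread among dTAGV1 libraries and is not a lower bound. In dTAGV1 replicates 2 to 4 CCL20 had 0.604, 0.295 and 1.18 CPM. A count of 0 allows 0.724 to 0.82 CPM in a DMSO library. CCL20 had too few counts to be tested.

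**Figure D4:**
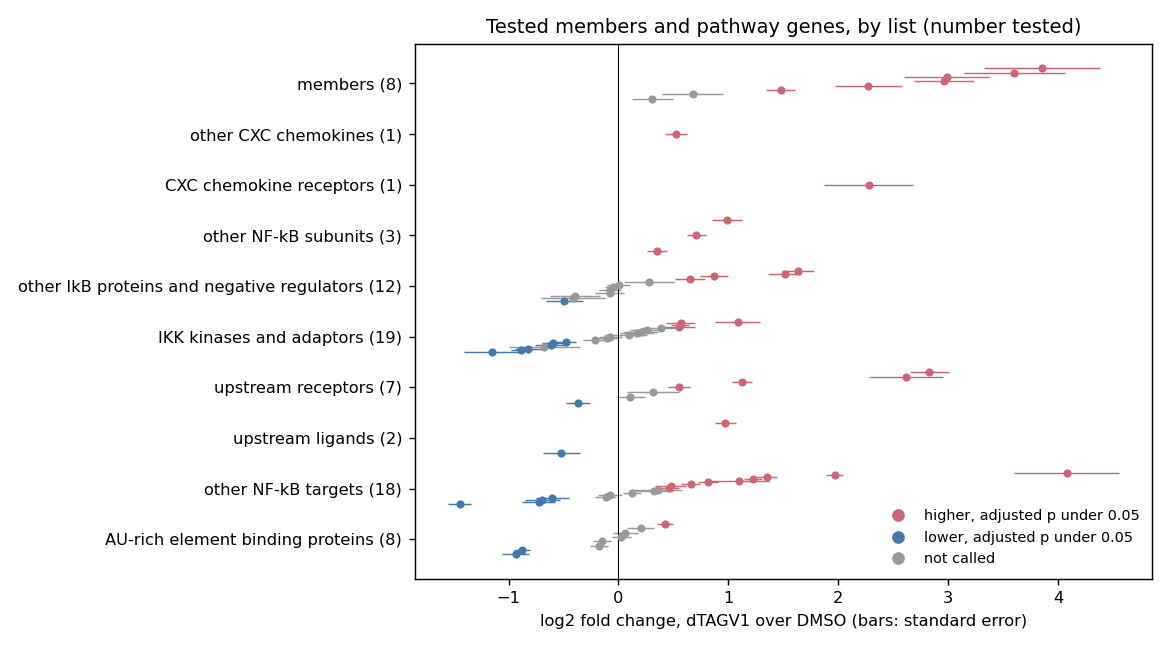
Log2 fold change of dTAGV1 over DMSO (horizontal axis) with its standard error for each tested gene of the members and of 9 pathway lists, coloured by the edgeR call. The 6 called members lie between 1.47 and 3.85, the 3 other NF-kB subunits between 0.35 and 0.98, and kinases and adaptors on both sides of 0.

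Of 8 proteins that bind AU-rich elements, 1 was higher (12.5%, against 29.4% of all tested genes). Of these 8, 2 were lower (25%, against 28.5%) and 5 were not called. ZFP36L2, which speeds decay of such messengers, was the lowest at -0.93 (edgeR, adjusted p = 3.81e-07) and TIAL1 the highest at 0.42 (edgeR, adjusted p = 2.23e-05). HNRNPD, which encodes AUF1, was the other lower gene at -0.88. ZFP36, the gene of tristetraprolin, had a value of 0.20 and was not called. Scaling by library size alone called 4 of the 8 lower.

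The profiles most like those of CXCL8 and NFKBIA were sought among about 9050 genes with a symbol and a mean of at least 10 CPM. Likeness was the root mean square difference, over 8 libraries, between log2 levels centred on the mean of each gene. Before the log 0.5 CPM was added, and likeness is a description without a test. For CXCL8 the nearest were the noncoding gene LINC01909 at 0.463, BIRC3 at 0.473 and the noncoding gene LINC01934 at 0.494. CXCL1, CXCL2 and CXCL3 stayed under 10 CPM in every library and could not appear. CXCL8 had 0 to 0.724 CPM with DMSO, so the added 0.5 CPM made its change smaller in this measure. Its nearness to BIRC3 may therefore rest on these settings. For NFKBIA, IRF1 lay at 0.105 and OSMR, the oncostatin M receptor gene, at 0.115. IRF1 went from 64.2 ± 7.00 to 164 ± 19.98 CPM (SD, n = 4 each).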

How the data were processed

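RNA 3′ ends were read with the Lexogen QuantSeq forward kit from RNA labelled as polyadenylated, in 8 HCT116 libraries, per the labels' protocols. The deposited values are whole-number counts of reads per gene in the layout of STAR's per-gene output. The submitters' processing notes name fastp, STAR, HTSeq, DESeq2 and GRCh38 without versions or roles. Annotation and molecular identifiers: not given in the sources used here. Reads may therefore include copies of 1 molecule, and counting error understates the error of 1 value. Sense-strand counts were analysed. The 4 totals of reads given to no gene (56.7% to 62.8% of reads) stayed out of library sizes.

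Genes were filtered with filterByExpr, scaled with TMM and tested with edgeR 4.0.16 (R 4.3.3, robust quasi-likelihood F test), with Benjamini-Hochberg adjustment over all 12618 tested genes. The standard error is the absolute log2 fold change divided by the square root of F. The fit was tested on simulated data. Named genes are the members, the highest and lowest tested gene of each list, all tested genes of lists with fewer than 5, the 3 nearest profiles, and neighbours. One of these profiles and one sequence are not reported here. Members and lists were chosen with earlier results of these data known. Alternatives were RLE and library-size scaling, DESeq2 1.42.0, limma-voom (limma 3.58.1), other filters, counts irrespective of strand, non-robust dispersions, a replicate block and leaving out each library.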

Additional observations from a re-analysis of the deposited data

Results flagged for a closer look

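Dixon's test at the 95% level was applied to the CPM of each member in each group, 20 groups in all, of which chance alone flags about 1 in 20. It singled out 1, ICAM1 in DMSO replicate 4, with a ratio of gap to range of 1. That library had 1 count and the other 3 had 0, so the value of 0.247 CPM rests on a single read.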

How the results depend on the processing

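The alternatives gave 598 values over 39 results. Of these, 580 stayed on the same side of the threshold, within 1.5 times of a count or within the spread between libraries, 7 moved past the threshold and 11 counts moved by more than 1.5 times. Many values of the pair ratios could not pass. With 1 library left out the smallest possible exact permutation p is 0.0571, and with a replicate block it is 0.125. The 580 is thus not a measure of how firm the results are. No called value changed sign. NFKB2 passed the threshold with DESeq2 (log2 fold change 0.66, adjusted p = 0.0498), limma-voom (0.59, adjusted p = 0.0121), no filter (0.65, edgeR adjusted p = 8.67e-05), non-robust dispersions (0.67, edgeR adjusted p = 0.00508) and a replicate block (0.62, edgeR adjusted p = 0.00699). Over the 8 fits that left out 1 library it ran from 0.32 to 0.79. A filter on a mean of 100 counts left 2 members called higher, because fewer were tested. No filter called 8 higher, with CXCL3 and NFKB2 added, in a fit with smaller adjusted p-values for every tested member but RELB. No alternative called a member lower. Leaving out each library gave 6 to 7 members higher, and BIRC3 ran from 2.76 to 3.23. The pathway lists gave 19 to 30 genes higher and 10 to 18 lower over all alternatives. In the fits that left out 1 library the log2 ratio of NFKBIA to TNFAIP3 ran from -0.93 to -0.63, and those of CXCL1 to CXCL3 and CXCL2 to CXCL8 changed sign. Deviations of same-numbered libraries correlated at 0.135, -0.0221, 0.0253 and 0.0362, so the numbers were not taken as pairs. The replicate block called 7434 genes in all against 7302 and changed the call of NFKB2 only among the members. Low DMSO counts limit the size of every attractant's fold change.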
